A study of Mus musculus with 3 samples.

Results

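The comparison described here sets cultured mouse bone marrow mesenchymal progenitors given a short hairpin RNA (shRNA) against HIF-2α beside the same kind of cells given a control shRNA. It covers every gene that a single-gene probe set of an Affymetrix array could represent, 17097 genes in all, each read through whichever of its probe sets was brightest on average across the 3 arrays. Of these, 6175 genes reached an intensity of 16 on at least 1 of the 2 arrays compared, and the counts below refer to them unless another base is named. Values are RMA intensities (background-corrected, normalised and summarised per probe set) on a linear scale, and differences are log2 of the HIF-2α array over the control array.

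All groups were PaS+ progenitors from adult C56Bl/6 mice aged 8 weeks, sorted by FACS, grown for 7 days in MesenCult medium at 1% oxygen, transduced overnight with lentivirus and collected 4 days later. The control cells carried shCTR, the cells of interest shHIF-2a, and the remaining culture shHIF-1a. Low oxygen and lentiviral transduction were thus common to all. The labels name 1 hairpin per target, 1 array per hairpin and no second culture, so a difference here separates these arrays and could not be set against any spread between cultures. No test was run and no p-value is given.

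Hypoxia-inducible factors are transcription factors made of an oxygen-regulated α subunit and the stable partner ARNT. HIF-1α and HIF-2α bind the same core DNA sequence, the hypoxia response element, and share some targets while differing in others. In bone marrow, mesenchymal progenitors live at low oxygen, build collagenous matrix, can become bone, cartilage or fat cells, and secrete CXCL12, which retains blood stem cells. Most of the genes with the highest differences here are known to be induced by interferons, whose signalling was not itself measured. Type I interferon signalling runs from receptor through STAT and IRF factors to a second DNA element, the interferon-stimulated response element.

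That element is shown first for the genes with the highest differences, since it is the known binding site for the factors that induce such genes. RefSeq promoters (250 bases before to 50 after an annotated start, assembly GRCm38.p6) were listed for 9 of the 14 genes with the highest differences, and 6 of the 9 held a simple form of the element, GAAA, any 2 bases and GAAA again, on either strand. The stretches below end at or before the annotated start, run 5′ to 3′ on the gene's strand, and carry the matching letters in capitals, overlapping matches run together.
Ifit1, chr19:34640779-34640838, plus strand: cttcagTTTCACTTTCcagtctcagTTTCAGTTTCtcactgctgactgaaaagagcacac
Ifit3, chr19:34583382-34583441, plus strand: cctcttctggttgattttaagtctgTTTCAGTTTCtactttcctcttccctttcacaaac
Oas1g, chr5:120887614-120887650, minus strand: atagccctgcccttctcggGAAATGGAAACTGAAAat
Gbp3, chr3:142559980-142560039, plus strand: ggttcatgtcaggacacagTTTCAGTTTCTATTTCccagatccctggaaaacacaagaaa
Trim30a, chr7:104465195-104465254, minus strand: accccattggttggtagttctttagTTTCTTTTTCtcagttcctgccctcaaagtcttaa
Rsad2, chr12:26456538-26456597, minus strand: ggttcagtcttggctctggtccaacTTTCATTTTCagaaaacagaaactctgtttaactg

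In the promoter table as a whole, with 27025 genes, 3.99% held the same letters, and among genes over the minimum with a listed promoter 3.83% did. Of the genes at least 2-fold higher with a listed promoter, 32 of 273 (11.7%) held them. Of the genes at least 2-fold lower 2 of 22 (9.09%) did, so the shares do not set the directions apart. A match describes the letters in these windows and is not a measurement of binding.

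The targeted genes were examined before any other. Epas1, which encodes HIF-2α (Entrez gene 13819), gave 5.09 with the control and 3.21 with the HIF-2α hairpin through its brighter probe set, and 9.44 with the HIF-1α hairpin. The highest nonspecific control probe set of the pair read 3.47. Epas1 was therefore above that level with the control hairpin and below it with the HIF-2α hairpin, at least 1.47-fold lower, from a starting value close to background. Its other probe set was under the nonspecific level on every array. Hif1a (Entrez gene 15251) read 352.1 on the control array and 332.4, or 94.4% of control, on the HIF-2α array. The array labelled HIF-1α shRNA gave the same Hif1a value of 332.4, so this probe set shows no marked loss of the transcript that hairpin targets, and "HIF-1α array" stands here for the array so labelled.

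Of the 6175 genes, 339 exceeded control by 2-fold or more with the HIF-2α hairpin, which is 5.49% of them, and 38 lay 2-fold or more under it, which is 0.615%. At 4-fold the counts were 76 higher and 4 lower. In these counts, and in every difference quoted, a value under 3.47 was raised to 3.47, and a fold that rests on such a value is written as "at least". The median gene differed by 0.10 on the log2 scale, 62.5% lay above 0 and 22.1% below, and 15.3% had exactly the same intensity on both arrays.

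**Figure D1:**
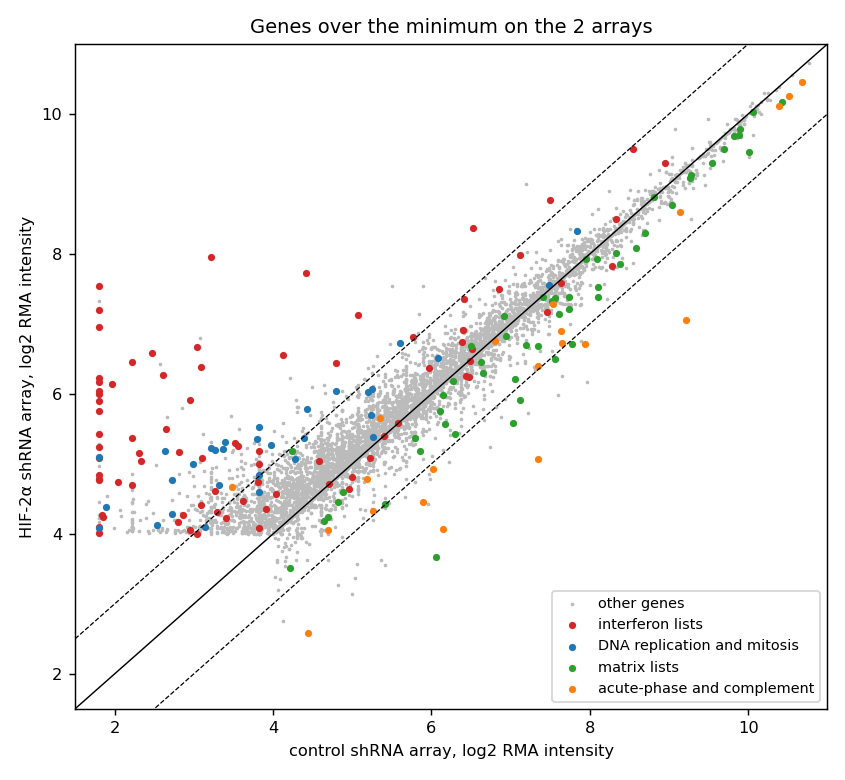
Log2 RMA intensity on the HIF-2α shRNA array (vertical) against the control shRNA array (horizontal) for the 6175 genes over the minimum. Dashed lines mark 2-fold, values under 3.47 are drawn at 3.47, and the coloured points are the listed genes. Of 82 interferon-list genes 52 lie above the upper line, mostly at low control intensity. Most matrix, acute-phase and complement genes lie below the diagonal at medium to high intensity.

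The excess of higher genes sat among dim genes. Of the 339 higher genes, 283 read under 16 on the control array, 27 of them under the nonspecific level, and 56 read at least 16. When genes were grouped by their geometric mean intensity on the pair of arrays, the median difference was 0.36 under an intensity of 8, 0.22 from 16 to 32, 0.09 from 32 to 64 and 0.00 in the brightest group. The share at least 2-fold higher was 17.2% from 8 to 16 and 1.93% from 32 to 64, where the share at least 2-fold lower was 0.623%. The HIF-1α array had a like offset from the same control array, with medians of 0.25 under 8 and 0.18 from 16 to 32. Of the 339 higher genes 329 also read above control on the HIF-1α array, by deposited values. Only 60 of the 339 were at least 2-fold above the HIF-1α array. Among the 5451 genes that reached 16 on the control array itself, 56 (1.03%) were at least 2-fold higher and 38 (0.697%) lower, with 57.5% above 0. After cyclic loess scaling of the arrays the counts were 208 higher and 55 lower, and after quantile normalisation 157 higher and 66 lower.

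**Figure D2:**
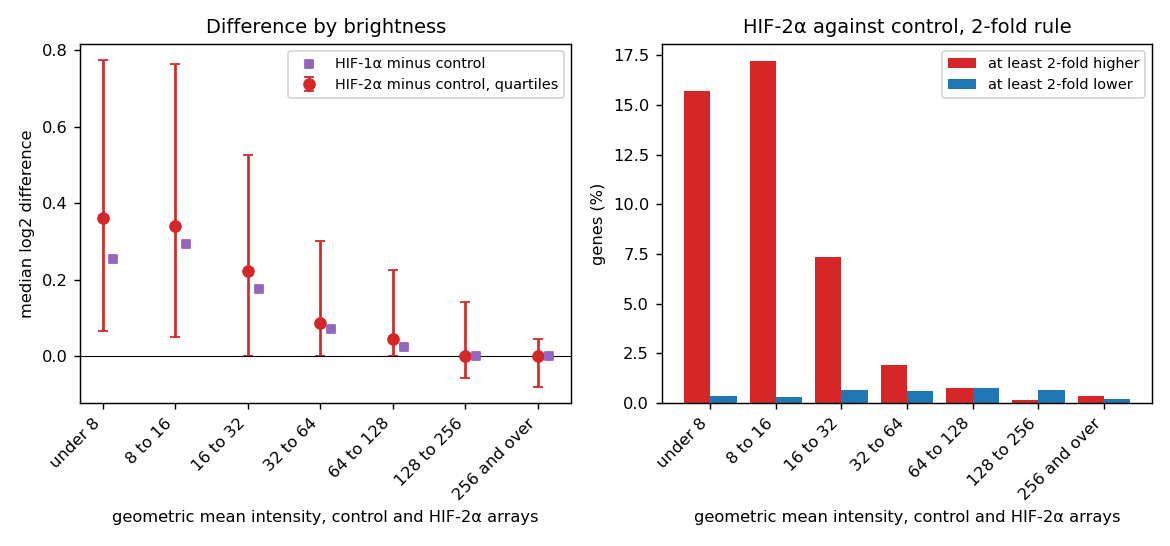
Left, median log2 difference from control by geometric mean intensity, with quartiles for the HIF-2α array and the median alone for the HIF-1α array; right, the percentage of genes at least 2-fold higher or lower on the HIF-2α array. The median difference goes from 0.36 in the dimmest genes to 0.00 in the brightest, and the share of higher genes from 17.2% at 8 to 16 to 1.93% at 32 to 64.

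Control probe sets showed how the array pair compared apart from the cells' own RNA. The 12 probe sets for the hybridisation controls (bacterial BioC and BioD and phage Cre, labelled RNAs added to the hybridisation mix) that exceeded the nonspecific level were all dimmer on the HIF-2α array, with a median difference of −1.02 and a range from −1.39 to −0.50, whereas the HIF-1α array gave a median of 0.08. A BioC probe set, for example, read 75.01 on the control, 76.3 on the HIF-1α and 32.2 on the HIF-2α array. Bacterial poly-A controls above the nonspecific level, 7 in number, had a median of 0.12. The ratio of 3′ to 5′ probe sets for β-actin, a sign of RNA integrity, was 1.38 on the control and 1.52 on the HIF-2α array, and for Gapdh 1.17 and 1.19. The part of the dim hybridisation controls in the results that follow was not tested. Centring each array used the mean of all 18 hybridisation control probe sets, which include BioB probe sets under the nonspecific level. It adds 0.74 to each difference that does not rest on a raised value. The median gene then comes to 0.85 and the counts to 2403 higher and 8 lower.

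**Figure D3:**
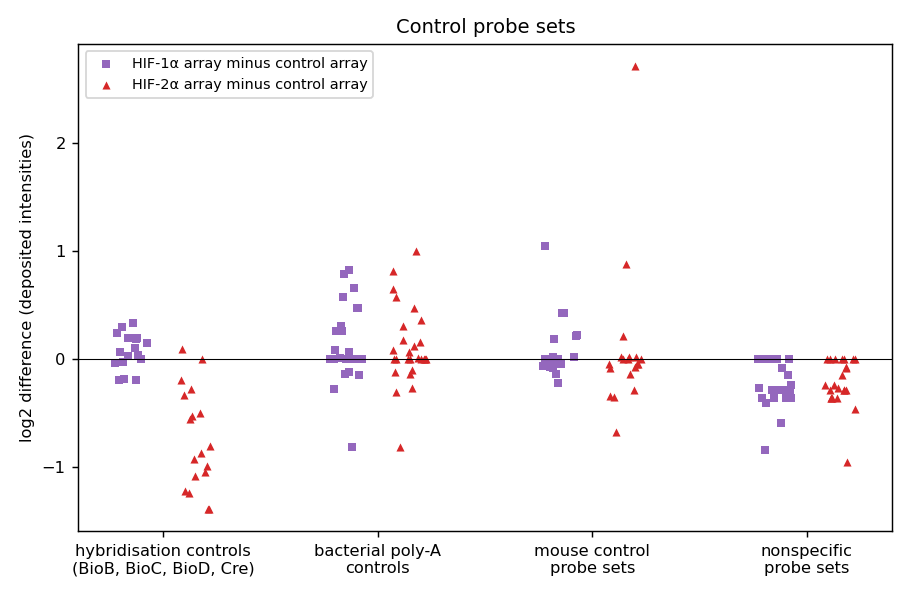
Log2 differences of control probe sets from the control shRNA array, squares for the HIF-1α and triangles for the HIF-2α shRNA array, by kind of control. The hybridisation controls of the HIF-2α array reach down to −1.39, while the poly-A controls of both arrays scatter around 0.

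Members of the interferon lists made up 13 of the 14 highest differences. The remaining gene, Gm9706, is a predicted gene outside those lists, whose probe set also matches other transcripts. That probe set read 2.79 on the control, 92.5 on the HIF-1α and 161.4 on the HIF-2α array. Which transcript gave the signal was not settled, so it is not shown to differ in kind from the other 13. In 10 of the 14 the control value was under the nonspecific level, so their folds are lower bounds and their order is not settled. Ifit1, which binds foreign RNA, read 1.04 on the control, 93.8 on the HIF-1α and 186.3 on the HIF-2α array, at least 53.7-fold above control. Usp18, a protease that removes ISG15 from proteins, read 1.26 and 147.4 on the control and HIF-2α arrays, Iigp1, an immunity-related GTPase, 1.65 and 59.5, and Ifi35, an interferon-induced leucine zipper protein, 2.48 and 54.3. Rtp4, an interferon-induced receptor chaperone that cleared the nonspecific level everywhere, read 9.27 on the control, 167.8 on the HIF-1α and 248.8 on the HIF-2α array, which is 26.8-fold. Rsad2, whose product viperin makes a chain-terminating nucleotide, read 1.24, 11.4 and 64.04. In Ifit1, Rtp4 and Rsad2 the HIF-2α array was the brightest and the control array the dimmest, but over the list of antiviral effectors only 2 of 15 genes over the minimum were at least 2-fold above the HIF-1α array.

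Effectors with readable control values allow a fold that is no bound. Xaf1, an interferon-induced pro-apoptotic factor, read 21.4 on the control and 211.2 on the HIF-2α array, 9.89-fold. Lgals3bp, a secreted glycoprotein, read 92.3 and 331.0, 3.59-fold. Ifitm3, which blocks viral entry at endosomes, read 371.8 and 726.3, a difference of 0.97. Its relative Ifitm2 went the other way, 310.1 against 226.7 (−0.45), and Isg20, an exonuclease, differed by 0.14. Of 26 antiviral effectors on the array 6 stayed under the nonspecific level on both arrays. Of the other 20, 13 were at least 2-fold higher, none at least 2-fold lower and 19 above 0. Over all 8886 genes above that level 7.62% were at least 2-fold higher, 0.518% at least 2-fold lower and 66.6% above 0. Among the 6 effectors at 16 or more on the control array 2 were at least 2-fold higher, beside 1.03% of all genes at that level.

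Sensors of nucleic acids differed in the same direction. Ddx58, which encodes the RNA sensor RIG-I, read 17.4 on the control and 93.8 on the HIF-2α array, 5.37-fold, and its second probe set, under the nonspecific level on the control array, differed by at least 2.84. Ifih1 (MDA5, for long double-stranded RNA) read 1.35 and 43.1, at least 12.4-fold, and Zbp1, which detects left-handed nucleic acid helices, 1.35 and 74.7. Eif2ak2 (PKR, which halts translation on double-stranded RNA) differed by 1.98, with 35.5 on the HIF-1α and 33.9 on the HIF-2α array, and Adar, an RNA-editing deaminase, by 1.78. On the DNA-sensing side Sting1, the adaptor of the cGAS pathway, differed by 1.33 and the p200 family genes Ifi203 and Ifi205 by 3.29 and 2.06, and Ifi209 by at least 3.04. In all, 15 of 20 sensors on the array were at least 2-fold higher and none lower, beside 7.62% and 0.518% of all genes above the nonspecific level. Of the 6 sensors at 16 or more on the control array 3 were at least 2-fold higher, beside 1.03% of all such genes.

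Signalling genes varied widely. The receptor genes Ifnar1 and Ifnar2 differed by −0.13 and −0.04. Of the kinase genes that serve such receptors, Jak1 and Jak2 differed by −0.29 and −0.32, whereas Tyk2 read 9.77 on the control and 19.8 on the HIF-2α array, a difference of 1.02. Among transcription factors Irf7, which amplifies interferon production, read 3.91 against 70.5, and Irf9, the DNA-binding partner of the STAT complex, 7.74 against 60.4, or 18.04-fold and 7.81-fold. Stat2 read 3.12 and 17.1, at least 4.92-fold higher. Constitutive Irf3 differed by 0.45. Of 24 signalling genes on the array 19 exceeded the nonspecific level. Of these 5 were at least 2-fold higher (Irf7, Irf9, Stat2, Tyk2 and Nmi, a STAT-binding protein), beside 7.62% of all such genes. Among the 10 at 16 or more on the control array 7 lay below 0 and 2 above. Of all genes at that level 25.1% were below 0 and 57.5% above. The interferon gene Ifnb1 read 1.35 on all 3 arrays, under the nonspecific level.

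GTPases, ligases and antigen presentation completed the group. Gbp3, a guanylate-binding protein, read 4.64 and 87.7 (18.9-fold), Irgm1, an immunity-related GTPase that acts on vacuoles, 8.21 and 102.2 (12.4-fold), while Mx1 stayed under the nonspecific level on both arrays. Parp12, an ADP-ribosyltransferase, read 5.54 and 96.3, and the ubiquitin ligase gene Trim25, which activates RIG-I, 27.8 and 87.1. In antigen presentation all 13 genes above the nonspecific level were above 0 and 5 at least 2-fold higher. Of all genes above that level 66.6% were above 0 and 7.62% at least 2-fold higher. Among the 6 antigen presentation genes at 16 or more on the control array 1 was at least 2-fold higher, and their median was 0.43. Of all genes at 16 or more there 1.03% were at least 2-fold higher. H2-D1, a class I heavy chain on a shared probe set, read 180.1 and 436.0 (2.42-fold). The peptide-trimming gene Erap1 read 4.95 and 35.6, and the immunoproteasome gene Psmb9 3.57 and 19.3. The 28 constitutive proteasome genes, by contrast, had a median of 0.11, with 25 above 0 and none past 2-fold.

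Markers of blood cells, which also express such genes, were low. The common leukocyte gene Ptprc read 1.05 and the macrophage gene Adgre1 0.98 on both arrays. Of 10 haematopoietic markers 8 were under the nonspecific level on both arrays, the exceptions being Cd14 at 93.4 and 93.2 and Cd68 at 1.59 and 7.24, and the summed intensity of the list was 105.1 on the control and 109.8 on the HIF-2α array. Progenitor markers were near equal as a list, with a median of 0.00 over 10 genes over the minimum. Cd44 read 500.5 and 576.5, Nt5e 407.1 and 323.7, and Pdgfra 38.2 and 47.9.

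**Figure D4:**
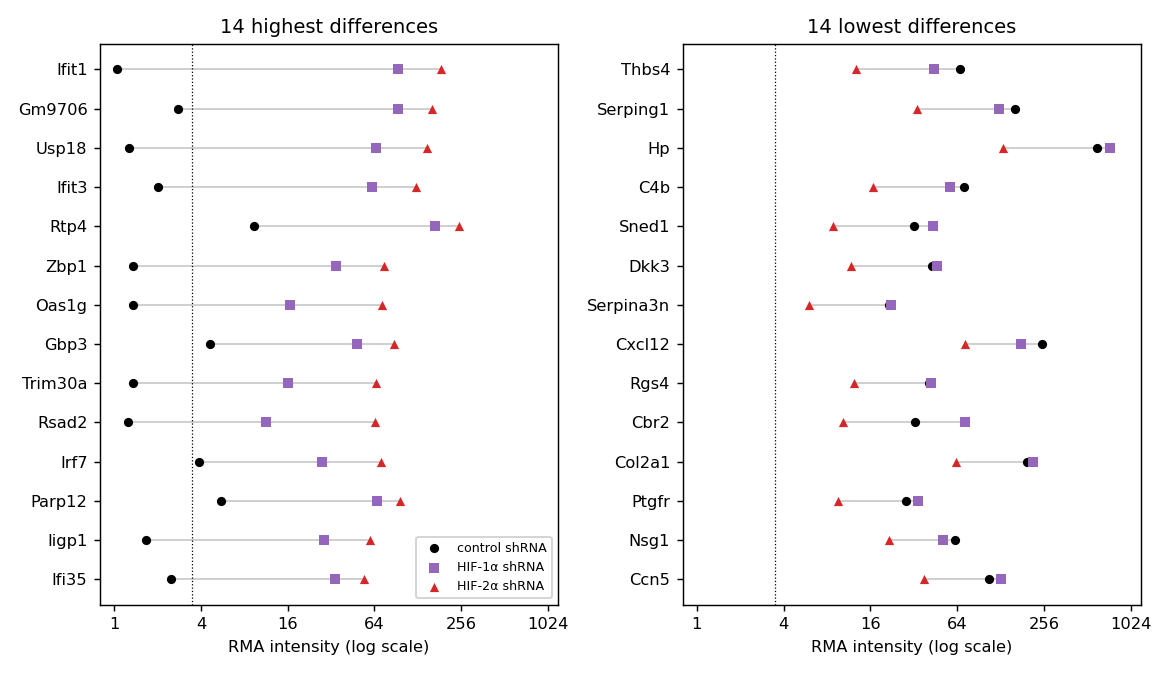
RMA intensity (log axis) of the 14 genes with the highest and the 14 with the lowest difference, with circles for the control, squares for the HIF-1α and triangles for the HIF-2α shRNA array; the dotted line is the nonspecific level of 3.47. In the left panel the squares lie between the other symbols, and in the right panel most squares lie near the control circles.

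Genes of cell division were higher on the HIF-2α array. Bub1, a spindle checkpoint kinase, read 2.36 on the control, 7.63 on the HIF-1α and 34.3 on the HIF-2α array, at least 9.87-fold above control. Ccna2, the cyclin of S phase and mitotic entry, read 6.21, 15.003 and 36.4 (5.87-fold), and its second probe set, under the nonspecific level on the control array, gave a difference of at least 2.94. Top2a, the topoisomerase that untangles replicated chromosomes, read 13.9, 15.95 and 40.9. In these genes the HIF-2α array stood above both others. Anln, an anillin of the cytokinetic ring, was the brightest mitosis gene and read 48.8, 43.9 and 105.7, 2.17-fold.

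Of 27 mitosis genes on the array, 3 were under the nonspecific level on both arrays and the other 24 were all above 0, 18 of them at least 2-fold higher, with a median of 1.49. Over all genes above that level 7.62% were at least 2-fold higher and 66.6% above 0. Most of these genes are dim, and dim genes in general were higher on this array. Of the 9 mitosis genes with a geometric mean from 16 to 32, 7 were at least 2-fold higher, beside 7.36% of all genes of that brightness, and all 6 from 8 to 16 were, beside 17.2%. The 5 mitosis genes at 16 or more on the control array had a median of 0.83, and 1 was past 2-fold.

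Replication genes followed. Mcm6 and Mcm7, subunits of the replicative helicase, read 21.4 and 55.3, and 10.3 and 36.9. Cdt1, which loads that helicase onto origins, read 27.8 on the control and 65.9 on the HIF-2α array, 2.37-fold. Pcna, the sliding clamp and the brightest of the list, read 227.8 and 321.4, a difference of 0.50, and Rrm2, the ribonucleotide reductase subunit, differed by 0.08. Of 27 replication genes on the array 25 exceeded the nonspecific level; these were all above 0 and 12 were at least 2-fold higher, beside 66.6% and 7.62% of all such genes. Of the 7 at 16 or more on the control array 2 were at least 2-fold higher, beside 1.03% of all genes at that level, and their median was 0.47. Among p53 targets and CDK inhibitors the median was 0.07, with Pmaip1 (NOXA, a pro-apoptotic factor) at 10.9 and 27.9 and Perp, a desmosomal p53 target, at 1.47 and 17.9, whereas the cell cycle inhibitor genes Cdkn2a and Cdkn2b differed by −0.32 and −0.25.

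**Figure D5:**
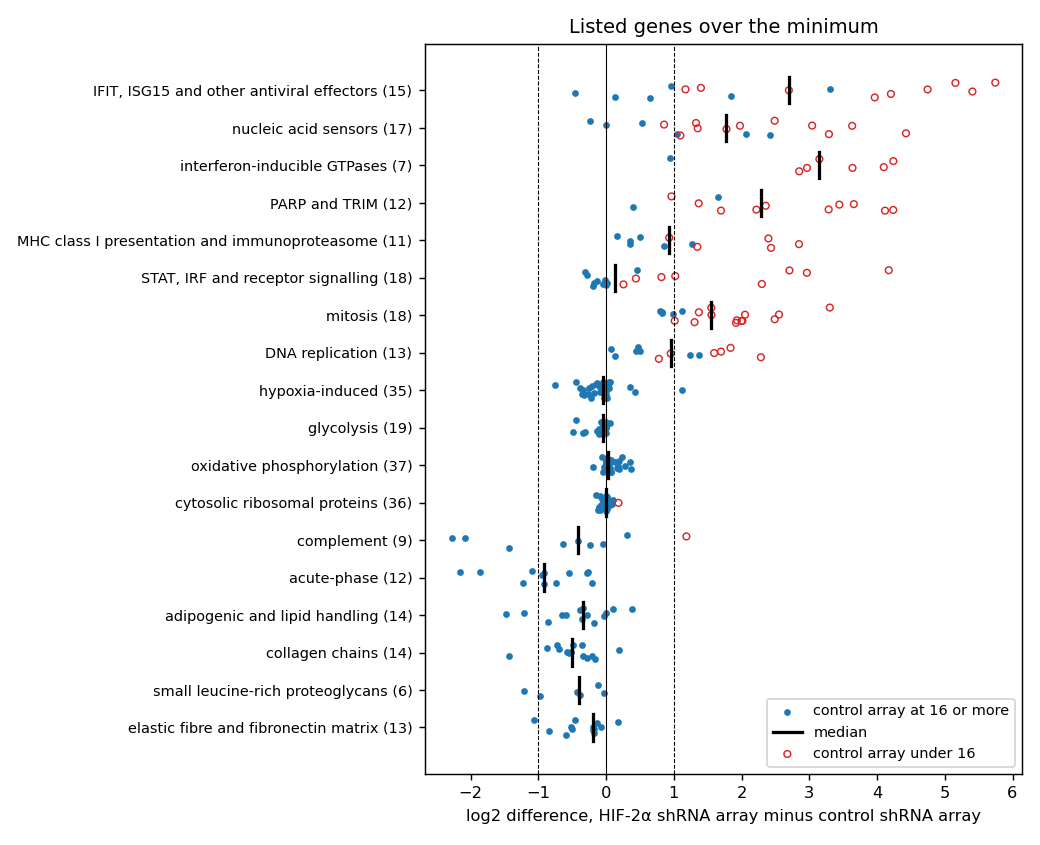
Log2 difference of each listed gene over the minimum, HIF-2α shRNA array minus control shRNA array, by gene list (number of genes in brackets); bars are list medians, open circles read under 16 on the control array and so passed the minimum through the HIF-2α array. The upper lists are shifted right mostly by open circles, and the medians of hypoxia-induced, glycolysis and ribosomal protein genes sit close to 0. Acute-phase, complement and matrix lists lie mostly left of 0 with filled points. Of the 9 complement genes 2 lie right of 0, Cd55 among them as an open circle.

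The readable acute-phase genes were lower, with control values from 21.7 to 1633. Hp, whose product haptoglobin binds free haemoglobin, read 593.5 on the control, 741.2 on the HIF-1α and 132.7 on the HIF-2α array, 4.47-fold under control. Serpina3n, a secreted protease inhibitor, read 21.7, 22.3 and 6.01 (3.61-fold), and Cp, the copper ferroxidase ceruloplasmin, 245.1, 236.4 and 104.8 (2.34-fold). In each the HIF-1α array lay close to or above control and the HIF-2α array apart from both. All 12 acute-phase genes over the minimum were below 0, 4 of them at least 2-fold lower, and all 12 had reached the minimum on the control array, so none entered through a high HIF-2α value. Over the 5451 genes at 16 or more on the control array 25.1% were below 0 and 0.697% at least 2-fold lower. Bright members gave small differences: Saa3 read 1459 and 1219 and Mt1 (a metallothionein) 1633 and 1409. The other 11 members on the array were under the nonspecific level on both arrays.

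Complement genes went both ways, with 7 of 9 over the minimum below 0 and 2 above. Among all genes over the minimum 22.1% were below 0 and 62.5% above. Serping1, the inhibitor of the C1 proteases, read 162.5 and 33.7 (4.83-fold lower), C4b, a thioester component, 71.0 and 16.7 (4.25-fold), and the protease gene C1s1 59.5 and 21.97 (2.71-fold, on a shared probe set). The proteases C1rb and C1ra differed by −0.63 and −0.41. Cfb of the alternative pathway differed by 0.30, and Cd55, which dissolves convertases on the cell surface, read 11.1 and 25.3, 2.27-fold higher. Of 21 complement genes on the array 11 were under the nonspecific level on both arrays.

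Chemokine genes went both ways. Cxcl12, which retains blood stem cells in the marrow, read 249.96 on the control, 177.9 on the HIF-1α and 72.3 on the HIF-2α array, and its second readable probe set 42.5, 32.7 and 17.2, a difference of −1.31. Ccl5, a T-cell attractant that interferon also induces, read 146.5 on the control, 404.9 on the HIF-1α and 513.4 on the HIF-2α array (3.50-fold). Cxcl10 read 1.91, 21.3 and 38.8 on the same arrays, at least 11.2-fold above control on the HIF-2α array. The platelet chemokine precursor gene Ppbp read 59.3 on the control and 187.0 on the HIF-2α array (3.16-fold higher). Ppbp read 64.5 on the HIF-1α array, near control. The abundant chemokine genes Ccl2, Cxcl2 and Cxcl1 differed by 0.03, 0.00 and −0.29. Among inflammatory mediators Csf2 (GM-CSF) read 4.64 on the control, 4.88 on the HIF-1α and 24.8 on the HIF-2α array, and Il33, an alarmin, 4.70 on the control and 22.5 on the HIF-2α array. Csf2 and Il33 were the 2 of 31 genes of that list past 2-fold, and the list's median over the minimum was 0.17. Of the list 26 genes exceeded the nonspecific level, so 2 is near the 7.62% of all such genes at least 2-fold higher.

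Matrix genes lay slightly lower as lists, and a few were well below control. Thbs4, a thrombospondin of tendon and muscle matrix, had the lowest difference of all and went from 66.6 with the control hairpin to 12.7 with the HIF-2α hairpin, beside 44.0 with the HIF-1α hairpin. Its relative Comp read 218.4, 324.5 and 105.1, and Fmod (fibromodulin, which binds collagen fibrils) 139.0, 201.0 and 60.3. Comp and Fmod were thus highest on the HIF-1α and lowest on the HIF-2α array. Among the chains of collagen Col1a1 read 130.4 and 48.1 (2.71-fold lower), Col3a1 1030 and 705 (−0.55) and Col6a1 275.8 and 166.7 (−0.73). Of 14 collagen genes over the minimum 13 were below 0 and 1 at least 2-fold lower, with a median of −0.50. All 14 had reached 16 on the control array, where 25.1% of all genes were below 0 and 0.697% at least 2-fold lower. The enzymes that modify collagen had 15 of 17 below 0, a median of −0.24 and none past 2-fold, with Loxl1 at −0.66 and Loxl4 at 0.94. Emilin1 and Fbln5 of elastic fibres differed by −1.07 and −0.84, while Dcn (decorin) and Fn1 (fibronectin) differed by −0.03 and −0.18. With centring on the hybridisation controls the collagen median became 0.24 and Col1a1 −0.70. In bulk RNA fewer cells of a type and less RNA per cell cannot be told apart.

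Some lineage genes with cartilage or fat roles were among the lower genes too. Col2a1, the cartilage collagen, read 194.1 on the control, 214.8 on the HIF-1α and 63.3 on the HIF-2α array, 3.07-fold lower. The master regulator gene Sox9 read 37.3 and 31.5, a difference of −0.25. Lpl, the lipase that frees fatty acids from lipoproteins, read 148.7, 223.9 and 53.2 (2.79-fold), with a second probe set at 59.1, 99.8 and 27.6. Fabp4 and Fabp5, fatty acid carriers, differed by −0.86 and −1.21, and Pparg, the regulator of fat cell fate, by −0.28. Of 14 adipogenic and lipid genes over the minimum 11 were below 0 and 2 at least 2-fold lower, beside 22.1% and 0.615% of all genes over the minimum, while the lipid droplet gene Plin2 differed by 0.38. Among 5 markers of mature adipocytes the defining Adipoq read 3.004 and 3.50, near the nonspecific level, and the list's summed intensity, mostly Fabp4, was 337.9 on the control and 199.9 on the HIF-2α array. The part of adipocyte number in these values was not tested. Of 12 osteogenic genes on the array 7 were under the nonspecific level on both arrays, and 3 passed the minimum. Beside Col1a1, these were Bmp2, a bone morphogenetic protein, at 9.95 and 19.3 (0.95), and Tnfrsf11b, the osteoclast inhibitor osteoprotegerin, at 33.9 and 64.2 (0.92).

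Several signalling genes joined the lowest 14. Dkk3, a secreted Dickkopf family protein, read 42.5, 46.5 and 11.7 on the control, HIF-1α and HIF-2α arrays, and Rgs4, which shortens G protein signals, 41.1, 42.3 and 12.3. Second probe sets gave −1.01 for Dkk3 and −1.46 for Rgs4. Ptgfr, the receptor for prostaglandin F2α, read 28.1 and 9.60, and Ccn5, a matricellular protein that lacks a domain of its CCN relatives, 106.7 and 37.8. Its relatives Ccn1 and Ccn2, targets of YAP, differed by −0.01 and 0.00, while the YAP target gene Ankrd1 read 11.9 and 45.2, 3.81-fold higher. Sned1, a matrix protein, read 31.99 and 8.80, and Nsg1, an endosomal protein best known from neurons, 61.9 and 21.4. Igfbp3, which binds insulin-like growth factors, read 101.3 and 49.4, and Igfbp4 698.2 and 676.7.

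Meg3 had the most readable probe sets among the genes at least 2-fold lower. This imprinted long noncoding RNA was read by 4 probe sets over the minimum, which gave differences of −1.42, −1.32, −1.38 and −1.34. The brightest read 200.3 on the control, 206.5 on the HIF-1α and 76.8 on the HIF-2α array. Across the lower genes, 7 had another probe set over the minimum, 10 such probe sets in all, of which 9 were below 0 and 8 at least 2-fold lower. The exception was Gpc6, a glypican, whose other readable probe sets gave 0.04 and −0.21 beside −1.20. Across the higher genes 44 of 47 other probe sets were above 0 and 22 at least 2-fold higher. For Slc7a11, the cystine importer, the probe sets disagreed in size, at 2.94 and 0.62. For scale, other probe sets of uncalled genes were at least 2-fold higher in 5.2% and lower in 0.22% of 2269 cases.

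Redox genes had no common direction. Of 32 antioxidant and detoxification genes over the minimum 13 were above 0 and 13 below, beside 62.5% and 22.1% of all genes over the minimum. Slc7a11 read 7.23 and 55.7 and Aldh3a1, an aldehyde dehydrogenase, 39.6 and 93.3, with 100.2 on the HIF-1α array. Cbr2, a carbonyl reductase, read 32.8 on the control, 73.1 on the HIF-1α and 10.4 on the HIF-2α array, so the shRNA arrays lay on opposite sides of control. Gpx3, the secreted glutathione peroxidase, read 237.9 and 108.4, 2.19-fold lower. Genes of the ATF4 amino acid response, which share Slc7a11, had a median of 0.27, with Psat1 of serine synthesis at 0.80 and Chac1, a glutathione-degrading enzyme, at 0.73.

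Genes that respond to low oxygen differed little in size from control, but more of them lay below 0 than above. Of 35 hypoxia-induced genes over the minimum 25 were below 0, 8 above and 2 equal, with a median of −0.05. The HIF-1α array had a like lean for these genes, with a median of −0.09 from control. Against the HIF-1α array the HIF-2α array was higher in 13 of them and lower in 16, with a median of 0.00. All 35 had reached 16 on the control array, where 25.1% of all genes were below 0 and 57.5% above. Vegfa, the angiogenic growth factor, read 323.3 on the control, 286.8 on the HIF-1α and 276.5 on the HIF-2α array. Selenbp1, which oxidises methanethiol, read 215.7, 194.7 and 127.5, the list's lowest difference at −0.76. Anln, which the mitosis list also holds, was the only member over the minimum past 2-fold. Under the minimum Pfkfb4, a regulator of glycolytic flux in both the hypoxia and glycolysis lists, read 4.03 and 8.81, a difference of 1.13. The prolyl hydroxylase genes Egln1 and Egln3, which mark HIF-α for degradation and are themselves HIF targets, differed by −0.10 and −0.07. Of 19 glycolysis genes over the minimum, all at 16 or more on the control array, 13 were below 0 and 1 above. None was past 2-fold, with Pgk1 at 836.3 and 810.2 and Aldoc at −0.49. The glycolysis median was −0.05 on the HIF-2α array and −0.07 on the HIF-1α array.

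Genes often ascribed to HIF-2 more than HIF-1 gave 9 readable members. Cxcl12 and Igfbp3, described above, were at least 2-fold lower. Scd1, a fatty acid desaturase, differed by −0.58, the iron exporter gene Slc40a1 by −0.55 and Apln, a vascular peptide, by −0.31. Ccnd1 (cyclin D1) read 313.6 and 365.4, a difference of 0.22, and Mmp14 201.6 on both arrays. In all 6 of the 9 were below 0 and 2 above, with a median of −0.31. Over all genes over the minimum 22.1% were below 0 and 0.615% at least 2-fold lower.

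The core of the hypoxia response element, ACGTG on either strand, was searched in the same promoter windows. It was present for 21 of 27 hypoxia-induced genes with a listed promoter (77.8%), against 32.5% of genes over the minimum and 21.8% of the promoter table. The windows below belong to members among the 6 lowest differences of that list, with the core in capitals (its reverse complement for Jmjd6) and the same assembly as above.
Pfkfb3, chr2:11553960-11554014, minus strand: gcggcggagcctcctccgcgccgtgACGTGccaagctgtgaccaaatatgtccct
Mxi1, chr19:53329322-53329376, plus strand: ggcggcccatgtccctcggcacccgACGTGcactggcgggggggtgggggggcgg
Jmjd6, chr11:116843648-116843699, minus strand: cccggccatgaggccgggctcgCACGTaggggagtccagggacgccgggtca
Pfkfb3, a regulator of glycolytic flux, differed by −0.44, Mxi1, a MYC antagonist, by −0.32 and Jmjd6, a lysyl hydroxylase, by −0.34. Windows not printed here also held the core for Anln (1.12), Ankrd37 (0.35) and Selenbp1 (−0.76). The core thus occurred in members of the list on either side of 0. Among the genes at least 2-fold lower the core was present for 1 of 22 with a listed promoter and among those at least 2-fold higher for 74 of 273 (27.1%).

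Housekeeping systems had medians near 0. The 36 ribosomal protein genes had a median of 0.00 and ranged from −0.15 to 0.18. The 37 genes of oxidative phosphorylation had a median of 0.02, with 24 above 0, 4 below and none past 2-fold. Genes of endoplasmic reticulum folding and the unfolded protein response had 14 of 21 below 0 and 6 above, with a median of −0.05. They ranged from Pdia4 at −0.61 to Edem1 at 0.72. The genes of this list and of oxidative phosphorylation over the minimum had all reached 16 on the control array. Of all genes at that level 25.1% were below 0 and 57.5% above. Lysosomal genes had a median of 0.00 over 20 genes, and Gla (α-galactosidase), at 38.3 and 84.7, alone was past 2-fold.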

How the data were processed

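Gene expression was measured on 3 single-colour Affymetrix arrays, 1 per shRNA. The authors deposited a table of RMA intensities, on a linear scale as its values show (0.64 to 1747 on the control array); the submitters' processing notes name RMA without a version or settings. As usually run it gives the arrays alike distributions, which can hide a shift shared by most genes. The deposited distributions were not fully alike, with upper quartiles of 9.81 on the control, 13.0 on the HIF-1α and 13.9 on the HIF-2α array. On the same arrays 9508, 10431 and 10637 probe sets reached 16. Many values are exactly equal between arrays, so small differences may not have been recorded. Of 45141 probe sets, 104 were controls, 28898 had 1 gene in the platform annotation, 551 several and 15588 none listed; 28689 were matched by Entrez identifier to RefSeq names (assembly GRCm38.p6).

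Log2 ratios were taken from the deposited intensities without rescaling, with pandas 2.3.3; values under the highest nonspecific probe set of the pair (3.47) were raised to it. Genes needed an intensity of 16 on at least 1 of the 2 arrays. With 1 array per group the number of arrays limits the precision, and genes were counted by a 2-fold rule with no test. The counting was tested on simulated data, which covers the counting steps alone. The part of the offset of dim genes in the 2-fold calls was not tested. Cyclic loess and quantile normalization used limma 3.58.1. Genes to name were drawn from the targeted genes, those with the 14 highest and the 14 lowest differences, and, from 47 gene lists (835 of 940 genes matched), members past 2-fold (the 8 largest) or else the 4 with the largest differences, with members that set a range or define a cell type; not every gene so drawn is printed. Other members named by role were chosen after their values were seen. Comparison, lists and rules were chosen with earlier results of these data known. Of the list genes without a single-gene probe set, none was analysed here.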

Additional observations from a re-analysis of the deposited data

How the results depend on the processing

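No replicate could be left out, since each group is 1 array. No paired analysis was possible because each group has a single array. The count of genes at least 2-fold higher was 46 with a minimum of 64 on at least 1 of the 3 arrays, 677 with no minimum beyond the nonspecific level, 56 with a minimum of 16 on the control array, 69 with 16 added before log2, 208 after cyclic loess, 157 after quantile normalization and 2403 after centring on the hybridisation controls. The count at least 2-fold lower was 23 with the minimum of 64, 16 with 16 added, 66 after quantile normalization and 8 after the centring. Of the genes past the rule 89.9% were higher as analysed, 66.7% with the minimum of 64, 79.1% after cyclic loess, 70.4% after quantile normalization and 99.7% after the centring. Deposited values without the floor and the mean of all probe sets kept both counts within 1.5 times.

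The median of the antiviral effectors over the minimum, 2.70 as analysed, was 3.31 with the minimum of 64, 1.56 with none beyond the nonspecific level, 0.81 with the minimum on the control array, 1.68 with 16 added, 2.37 after quantile normalization and 3.03 after the centring. For mitosis, 1.56 as analysed, it was 0.83 with the minimum of 64 or on the control array, 0.91 with 16 added, 1.18 after quantile normalization and 2.29 after the centring. For DNA replication, 0.95 as analysed, it was 0.47 with the minimum of 64, 0.47 with the minimum on the control array, 0.47 with 16 added, 0.46 after quantile normalization and 1.99 after the centring. Only the centring moved the acute-phase median (to −0.18), the collagen median (to 0.24) and the hypoxia-induced median (to 0.69) by more than 0.33, the pooled SD between probe sets of a gene.

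Of 99 genes past 2-fold that the naming rule drew, none changed sign under the alternatives run. With 16 added 36 came under 2-fold, after the centring 18 of 98, after quantile normalization 6 of 95 and after cyclic loess 3 of 97. The causes of these shifts were not tested beyond what each alternative does by construction.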

Other observations

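Some genes outside the gene lists stood out at readable control values; they were chosen after their values were seen. Samd9l, an interferon-induced restriction factor, read 45.5 on the control, 137.1 on the HIF-1α and 185.7 on the HIF-2α array, 4.08-fold above control. Agrn, the basement membrane proteoglycan agrin, read 18.5, 40.3 and 75.01, 4.06-fold. Mlkl, the executor of necroptosis, differed by 1.61 and S100a8, a calgranulin read by a shared probe set, by 1.43. Pclaf, a PCNA-binding factor, read 25.1, 29.9 and 70.1, and Smc2, a condensin subunit, 25.3, 29.0 and 64.6, both near control on the HIF-1α array. On the lower side Aoc3, a vascular amine oxidase, read 33.3, 36.9 and 11.9, and Selenop, the selenium transport protein, 122.3, 152.4 and 60.8. Cck, the peptide cholecystokinin, read 63.0, 16.7 and 27.4, and so was lower than control on both shRNA arrays.

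Of the probe sets left out of gene counts, 2019 with no gene listed reached the minimum, and 4.41% were at least 2-fold higher and 0.743% lower. Among 185 with several genes the shares were 3.78% and 1.08%.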
